A study of Mus musculus with 16 samples.

Results

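The glutathione, glucuronosyl and sulfo transferases are the conjugating enzymes of phase II metabolism, and 67 of the 24539 genes in the count tables carry one of their names. They were taken by gene symbol alone (Gst of the alpha, zeta, kappa, mu, omega, pi and theta classes, Mgst, Ugt1 to Ugt3 and Sult followed by a digit), with no measured value used. Earlier results of these data were known when the set was taken. The set comprised 23 Gst genes, 3 Mgst genes, 20 Ugt genes and 21 Sult genes. One of them, Gstcd, shares a C-terminal domain with the glutathione transferases but is not known as a conjugating enzyme, and it was kept because its symbol fits the pattern.

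Livers came from male C57BL/6 mice aged 16 weeks, after 8 weeks on one of 2 diets. The HB group ate a high-fat diet with added betaine, and the HF group ate the high-fat diet alone, so both diets were high in fat. Each diet has 2 libraries of total mRNA, 2 of mRNA bound to ribosome-nascent chain complexes (RNC, transcripts recovered while being translated) and 2 of RNA fragments bound by an antibody against N6-methyladenosine (m6A). The mRNA and RNC samples were pools from independent experiments, so the spread between libraries, and every p-value, describes pools and not single mice. Input samples of the m6A libraries were not used here.

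Phase II enzymes attach a polar group to drugs, hormones, bile pigments and reactive metabolites, which makes them easier to excrete in bile or urine. Glutathione transferases (GST, and the membrane-bound MGST) add glutathione to electrophiles, UDP-glucuronosyltransferases (UGT) add glucuronic acid from UDP-glucuronic acid, and sulfotransferases (SULT) add sulfate from PAPS, the activated sulfate donor. The liver is their main site, and many of the genes are known to respond to the sensors of foreign compounds AHR, PXR and CAR and to NRF2, the factor that answers oxidative and electrophilic stress. The Ugt1a genes form one locus in which each gene has its own promoter and first exon and all share the remaining exons.

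Start-site sequences of the genes whose values matter most below are given here, from the RefSeq table for GRCm38.p6, which runs from 250 bases before to 50 bases after each annotated start. The table held 59 of the 67 members. The first 4 belong to Ugt1a genes that rose with betaine, and show that each has a separate promoter, with capitals marking GTTAAT or its reverse complement, part of the site bound by the liver factor HNF1. In Ugt1a1, Ugt1a6a and Ugt1a9 the match began 41, 50 and 91 bases before the start, while the Ugt1a5 window had no match. The windows are chr1:88211709-88212008, chr1:88134559-88134858, chr1:88070529-88070828 and chr1:88165762-88166061, in the order printed, all on the plus strand.
Ugt1a1: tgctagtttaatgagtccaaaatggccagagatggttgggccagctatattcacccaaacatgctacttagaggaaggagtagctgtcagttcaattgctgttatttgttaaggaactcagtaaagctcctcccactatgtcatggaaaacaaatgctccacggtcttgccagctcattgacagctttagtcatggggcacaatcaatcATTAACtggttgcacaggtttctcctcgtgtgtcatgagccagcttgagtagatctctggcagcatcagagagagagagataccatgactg
Ugt1a6a: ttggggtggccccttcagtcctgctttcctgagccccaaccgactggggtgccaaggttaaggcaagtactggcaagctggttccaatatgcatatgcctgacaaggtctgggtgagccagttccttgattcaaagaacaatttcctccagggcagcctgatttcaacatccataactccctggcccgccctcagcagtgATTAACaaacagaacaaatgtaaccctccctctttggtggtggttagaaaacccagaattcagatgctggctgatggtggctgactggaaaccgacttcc
Ugt1a9: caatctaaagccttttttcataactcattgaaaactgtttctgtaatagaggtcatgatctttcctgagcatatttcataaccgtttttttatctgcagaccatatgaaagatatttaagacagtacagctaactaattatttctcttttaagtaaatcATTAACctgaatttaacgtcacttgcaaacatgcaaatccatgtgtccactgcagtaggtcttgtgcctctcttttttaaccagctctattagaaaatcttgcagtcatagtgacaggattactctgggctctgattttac
Ugt1a5: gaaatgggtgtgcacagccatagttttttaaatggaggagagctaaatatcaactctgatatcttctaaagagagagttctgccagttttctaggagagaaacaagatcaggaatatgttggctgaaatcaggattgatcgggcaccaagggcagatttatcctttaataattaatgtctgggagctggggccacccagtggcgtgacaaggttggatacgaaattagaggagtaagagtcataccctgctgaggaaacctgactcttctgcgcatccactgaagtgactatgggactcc

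The next pair are the rising members whose window held TGACNNNGC, the core of the antioxidant response element through which NRF2 acts, in capitals. Gsta3 lies at chr1:21240335-21240634 on the plus strand, with the match 121 bases before the start. Gstm7 lies at chr3:107931565-107931864 on the minus strand, with the match 129 bases before the start.
Gsta3: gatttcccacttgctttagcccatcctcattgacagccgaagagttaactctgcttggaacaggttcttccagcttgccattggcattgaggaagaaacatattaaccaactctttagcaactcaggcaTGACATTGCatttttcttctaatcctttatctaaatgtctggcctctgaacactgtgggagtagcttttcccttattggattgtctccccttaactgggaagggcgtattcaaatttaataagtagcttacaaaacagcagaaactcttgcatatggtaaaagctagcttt
Gstm7: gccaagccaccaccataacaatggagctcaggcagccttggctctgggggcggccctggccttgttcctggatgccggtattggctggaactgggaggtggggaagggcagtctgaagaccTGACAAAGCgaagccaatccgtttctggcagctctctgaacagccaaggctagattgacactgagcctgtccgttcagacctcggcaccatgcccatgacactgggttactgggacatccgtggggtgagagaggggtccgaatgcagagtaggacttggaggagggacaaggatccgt

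Counted on both strands, with overlaps between motifs allowed, TGACNNNGC stood in the windows of 4 of 59 members (6.78%, the others being Gstm5 and Mgst1), against 14.0% of all 27025 genes in the table. GCGTG, the core bound by AHR, stood in 20.3% of members and 35.2% of all genes. GTTAAT stood in 23.7% of members and 8.24% of all genes. Of the 19 members with a window that were higher in HB mRNA, 2 held TGACNNNGC, 4 held GCGTG and 5 held GTTAAT. A match describes letters in the window and does not show binding.

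In total mRNA, conjugating enzymes were abundant. By RPKM, the deposited read count scaled by transcript length and library size, Mgst1 stood highest of the members, with 2753 and 2423 RPKM in HB livers, against 2179 and 2150 RPKM in HF livers. It was 27th of all genes by its mean over the 4 mRNA libraries. Gstp1, Gstm1, Gsta3 and Gstt1 followed, with means of 1094, 965, 770 and 562 RPKM over the same libraries. Sult1a1 was the highest of the sulfotransferases at 370 RPKM and Ugt2b5 the highest of the glucuronosyltransferases at 284 RPKM. Members took 1.46% and 1.29% of reads in HB mRNA, against 1.11% and 1.10% in HF mRNA. At the other end, 11 members had no read in any of the 8 mRNA and RNC libraries, among them Sult3a1, Sult3a2, Sult4a1, Ugt2a1 and Ugt2a2.

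Betaine-fed livers had more mRNA of many conjugating enzymes. Of the 67 members, 47 passed the filter on low counts and were tested, and 23 were higher and 2 lower in HB at an adjusted p below 0.05 (edgeR's quasi-likelihood test, Benjamini-Hochberg over all 12817 genes tested). Over all genes tested, 11.3% were called higher and 10.1% lower. The median log2 change of the tested members was 0.95, beside 0.01 over all genes tested. By family, 13 of 21 tested GST genes, 9 of 16 UGT genes and 1 of 8 SULT genes rose, no GST or UGT gene was called lower, and neither of the 2 tested MGST genes was called. Both HB values lay above both HF values in 36 of the 47 tested members and below them in 4, where 32.8% and 32.1% of all genes tested did so. A p above the threshold does not show that a member was equal in both diets, and in bulk liver fewer cells of a type and less RNA per cell cannot be told apart.

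**Figure D1:**
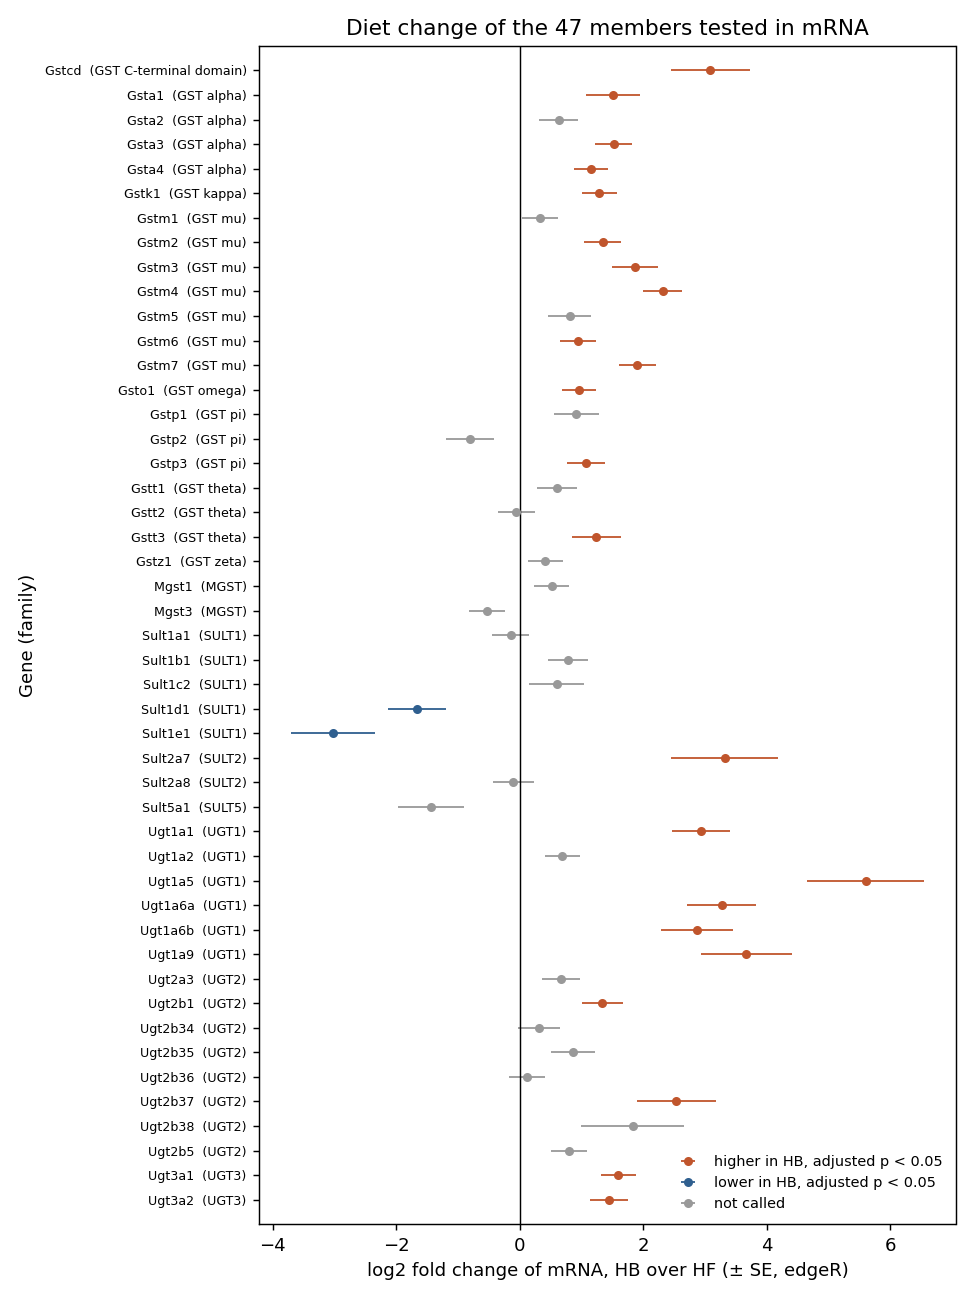
log2 fold change of mRNA, HB over HF, with its standard error (x axis) for the 47 members tested, by gene and family (y axis); orange points were called higher, blue lower and grey not called. The 5 called Ugt1a genes lie between 2.88 and 5.60, and Sult1d1 and Sult1e1 are the called points left of 0.

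Among members with a mean of at least 5 CPM, the 5 largest rises were in the Ugt1a locus. CPM here are read counts scaled to library size with TMM factors. Ugt1a1, the enzyme that conjugates bilirubin, had 237 and 84.3 CPM in HB livers, against 16.0 and 26.0 CPM in HF livers. Its log2 change was 2.94 ± 0.47 (SE), with an adjusted p of 0.00486 from edgeR. The HB libraries differed by more than the HF libraries, but the groups did not overlap.

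Ugt1a6a, of a pair of genes for phenol conjugation, had 54.7 and 19.0 CPM in HB livers, against 2.05 and 5.57 CPM in HF livers. Its partner Ugt1a6b had 29.5 and 9.71 CPM in HB livers, against 1.34 and 4.00 CPM in HF livers. Their log2 changes were 3.27 ± 0.55 and 2.88 ± 0.58 (SE; edgeR adjusted p of 0.00626 and 0.00943). HB replicate 1 was the higher library for both genes, as it was for Ugt1a1.

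Ugt1a9 had 21.3 and 3.87 CPM in HB livers, against 0.631 and 1.33 CPM in HF livers, a log2 change of 3.67 ± 0.74 (SE; edgeR adjusted p = 0.00922). Ugt1a5 went furthest on the log scale, with 37.7 and 4.95 CPM in HB livers, against 0.158 and 0.706 CPM in HF livers. That is a log2 change of 5.60 ± 0.94 (SE; edgeR adjusted p = 0.00603), but it rests on 2 and 9 reads in the HF libraries. Ugt1a2, the highest of the locus by RPKM, had 946 and 836 CPM in HB livers, against 521 and 581 CPM in HF livers. Its groups also stood apart, yet its log2 change of 0.69 ± 0.29 (SE) was not called (edgeR adjusted p = 0.105). Because the Ugt1a transcripts share every exon but the first, how the counts divide among them is uncertain. With HB replicate 1 left out, Ugt1a6b and Ugt1a9 were no longer called (adjusted p of 0.0824 and 0.0960), while Ugt1a1, Ugt1a5 and Ugt1a6a were called with each mRNA library left out in turn.

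**Figure D2:**
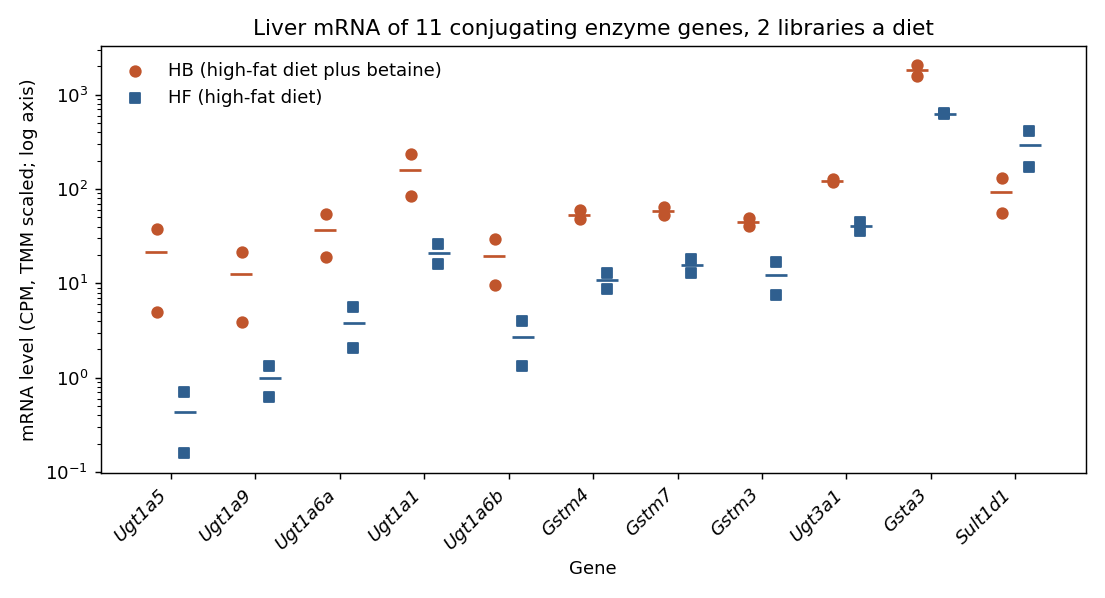
mRNA level in CPM on a log axis (y) of the 11 members with the largest called changes and a mean of at least 5 CPM (x); each point is 1 library, circles HB and squares HF, and the bars are means of 2. In Ugt1a1 the HB libraries stand at 237 and 84.3 CPM and the HF libraries at 16.0 and 26.0 CPM, and in Sult1d1 alone the HB points lie below the HF points.

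Of the 10 glucuronosyltransferase genes tested outside the Ugt1a locus, 4 were called higher, with log2 changes between 1.34 and 2.54. Ugt3a1 had 127 and 120 CPM in HB livers, against 36.1 and 45.2 CPM in HF livers, a log2 change of 1.60 ± 0.28 (SE; edgeR adjusted p = 0.00707). Its neighbour in the family, Ugt3a2, had 312 and 212 CPM in HB livers, against 85.8 and 107 CPM in HF livers, a log2 change of 1.45 ± 0.31 (SE; edgeR adjusted p = 0.0118). In humans the UGT3 enzymes use sugars other than glucuronic acid. Of the 8 tested Ugt2 genes, which conjugate steroids and many drugs, Ugt2b1 and Ugt2b37 were called. Ugt2b5, the highest of them by RPKM, had 757 and 658 CPM in HB livers, against 373 and 435 CPM in HF livers, and its log2 change of 0.81 ± 0.29 (SE) was not called (edgeR adjusted p = 0.0676). Ugt2b36 overlapped between the diets, with 586 and 532 CPM in HB livers and 471 and 561 CPM in HF livers.

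Among the glutathione transferases, 5 of the 7 mu genes were called higher, and Gstm1 and Gstm5 were not. Gstm4 had 59.5 and 47.9 CPM in HB livers, against 8.76 and 12.8 CPM in HF livers. Its log2 change was 2.32 ± 0.31 (SE; edgeR adjusted p = 0.00403). Gstm7 had 64.8 and 52.7 CPM in HB livers, against 18.3 and 13.03 CPM in HF livers, and Gstm3 had 48.9 and 40.2 CPM in HB livers, against 16.7 and 7.61 CPM in HF livers. In these 3 genes both HB libraries were at least as far above the HF libraries as the HF libraries were from each other. Gstm2 and Gstm6 were the other mu genes called. Gstm1, the highest of the class by RPKM, had 1345 and 1488 CPM in HB livers, against 1213 and 1044 CPM in HF livers, with a log2 change of 0.33 ± 0.29 (SE). Mu genes are close paralogs, so reads may be split unevenly among them.

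Gsta3, the alpha-class enzyme known in mice for detoxifying the epoxide of aflatoxin, had the highest RPKM of the members called in mRNA. It had 2051 and 1590 CPM in HB livers, against 634 and 631 CPM in HF livers, a log2 change of 1.52 ± 0.30 (SE; edgeR adjusted p = 0.00876). Gsta4, which conjugates aldehydes from lipid peroxidation, had 85.6 and 67.4 CPM in HB livers, against 36.6 and 31.9 CPM in HF livers (log2 change 1.16 ± 0.28, SE; edgeR adjusted p = 0.0169). Gsta1 was also called, but its call was lost with each mRNA library left out in turn and with scaling by total counts. Gsta2 was not called.

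The remaining classes mixed calls with differences that were not called. Gstk1, found in mitochondria and peroxisomes, had 209 and 235 CPM in HB livers, against 85.0 and 96.1 CPM in HF livers (log2 change 1.29 ± 0.29, SE; edgeR adjusted p = 0.0126). Gsto1, which also reduces dehydroascorbate, had 89.2 and 109 CPM in HB livers, against 52.0 and 49.8 CPM in HF livers (log2 change 0.96 ± 0.27, SE; edgeR adjusted p = 0.0303). Gstp3 and Gstt3 were called higher as well. The calls of Gsto1, Gstp3 and Gstt3 were lost with scaling by total counts. The abundant Gstp1, Gstt1, Gstz1 (maleylacetoacetate isomerase of tyrosine breakdown) and Mgst1 were not called, with log2 changes of 0.92, 0.61, 0.41 and 0.52. Gstp1 stood at 801 and 1420 CPM in HB livers, against 450 and 726 CPM in HF livers. Gstp2 and Mgst3 had lower values in HB than in HF in both libraries, and neither was called (log2 change -0.80 and -0.53). Gstcd was called at a low level, with 3.43 and 2.03 CPM in HB livers, against 0.394 and 0.235 CPM in HF livers.

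Sulfotransferases held both falls and 1 rise. Sult1d1, which sulfates catecholamines in mice, had 130 and 56.0 CPM in HB livers, against 417 and 171 CPM in HF livers, a log2 change of -1.66 ± 0.47 (SE; edgeR adjusted p = 0.0291). Within each diet the 2 libraries differed by more than 2-fold, and the call was lost with HB replicate 2 or HF replicate 1 left out. Sult1e1, the oestrogen sulfotransferase, named because only 2 members fell, had 0.143 and 0.381 CPM in HB livers, against 2.60 and 1.57 CPM in HF livers (log2 change -3.02 ± 0.68, SE; edgeR adjusted p = 0.0138). Sult2a7 rose at a low level, with 2.52 and 1.52 CPM in HB livers, against 0 and 0.392 CPM in HF livers. The abundant Sult1a1, a phenol sulfotransferase, overlapped between the diets at 414 and 554 CPM in HB livers and 574 and 497 CPM in HF livers. Sult2a8, a bile acid sulfotransferase in mice, overlapped too, at 586 and 349 CPM in HB livers and 427 and 575 CPM in HF livers. Sult5a1 had 7.04 and 13.2 CPM in HB livers, against 11.4 and 43.1 CPM in HF livers, and was not called.

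The mRNA libraries held 22492813 and 18011999 reads in HB and 11437462 and 11570775 reads in HF, and markers of several cell types differed with the diet. Over all genes tested, 11.3% were called higher and 10.1% lower, and 1 call among 6 markers is near that share. The 6 hepatocyte markers summed to 104160 and 95504 CPM in HB livers, against 66130 and 71527 CPM in HF livers, with 1 of 6 called higher. Most of that sum was Alb, with means of 63875 CPM in HB and 44150 CPM in HF. Red blood cell markers summed to 546 and 1620 CPM in HB livers, against 384 and 322 CPM in HF livers, with 3 of 5 called higher. Neutrophil markers were near 0 except in HF replicate 2, at 1.71 and 2.35 CPM in HB livers and 3.79 and 22.8 CPM in HF livers, and both tested markers, S100a8 and S100a9, were called lower. Stellate cell markers summed to 222 and 153 CPM in HB livers, against 109 and 98.3 CPM in HF livers, with 1 of 6 (Dcn) called higher. Macrophage markers summed to 223 and 217 CPM in HB livers, against 207 and 212 CPM in HF livers, with 2 of 6 (Marco and Vsig4) called higher. Clec4f, the most abundant of them, was alone in having a lower mean in HB (131 CPM, against 152 CPM in HF), and it was not called. The 5 cholangiocyte and 5 endothelial markers had no call. The part of these differences in the members' changes was not tested. Scaling by total counts moved the median of all genes to -0.28 and gave 18 members higher and 3 lower, keeping 20 of the 25 calls. The calls lost were all of GST genes (Gsta1, Gstm6, Gsto1, Gstp3 and Gstt3), so the GST count depends most on the scaling. Each library left out in turn kept 6 of the 25 calls throughout (Gsta3, Gstm4, Gstm7, Ugt1a1, Ugt1a5 and Ugt1a6a), the sign being the same for all 25.

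Of 17 tested genes that supply the cofactors of conjugation, 3 were called higher and none lower in mRNA, where 11.3% of all genes tested were called higher and 10.1% lower. This list and those that follow were written with earlier results of these data known, so their shares are a description and not a test. Papss1, which makes PAPS, had 12.3 and 5.97 CPM in HB livers, against 2.60 and 2.83 CPM in HF livers (log2 change 1.75 ± 0.44, SE; edgeR adjusted p = 0.0194). Bpnt1, which clears the by-product of sulfation, had 62.8 and 43.4 CPM in HB livers, against 19.4 and 17.7 CPM in HF livers (log2 change 1.52 ± 0.30, SE; edgeR adjusted p = 0.00847). Slc35d1, which carries UDP-glucuronic acid into the endoplasmic reticulum where the UGT enzymes face, was the other. Gclc, the catalytic subunit of the rate-limiting enzyme of glutathione synthesis, was not called, with 205 and 209 CPM in HB livers and 312 and 353 CPM in HF livers.

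Of the genes that hydrolyse conjugates or reactive intermediates, 5 of 11 tested were higher and none lower, beside the same 11.3% and 10.1% over all genes. Ephx1, microsomal epoxide hydrolase, had 444 and 622 CPM in HB livers, against 142 and 200 CPM in HF livers (log2 change 1.64 ± 0.32, SE; edgeR adjusted p = 0.00894). Glo1, which uses glutathione to clear methylglyoxal, had 451 and 374 CPM in HB livers, against 150 and 192 CPM in HF livers. Other conjugating enzymes had 2 of 15 higher, the methyltransferases Inmt and As3mt. Transporters of conjugates had 1 of 14 higher (Slco1a1) and 1 lower (Slco1a4). The counts of these last lists are near or below the shares over all genes.

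Of the sensors and their classic targets, 2 of 20 were called higher, close to the 11.3% over all genes, and 4 lower, beside 10.1% over all genes. Nfe2l2, which encodes NRF2, had 99.7 and 112 CPM in HB livers, against 216 and 255 CPM in HF livers (log2 change -1.16 ± 0.29, SE; edgeR adjusted p = 0.0190). Of the NRF2 targets in this list, Nqo1 and Srxn1 were called higher, at 1.28 and 1.07. Hmox1 and Txnrd1 stood higher in HB but were not called. Gclm and Gclc of the cofactor list were not called either, at log2 changes of 0.07 and -0.68. Ahr had 22.2 and 37.5 CPM in HB livers, against 85.2 and 59.6 CPM in HF livers, and Nr1h4, the bile acid receptor FXR, had 111 and 160 CPM in HB livers, against 451 and 358 CPM in HF livers. Ahr and Nr1h4 were called lower, at log2 changes of -1.28 and -1.58. Esr1, the oestrogen receptor, was the other gene called lower. Nr1i2 and Nr1i3, which encode PXR and CAR, were not called, with log2 changes of -0.95 and -1.11.

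In RNC, no member was called between the diets, in a fit with little power to detect a change. Members took 0.792% and 0.781% of reads in HB RNC, against 0.781% and 0.763% in HF RNC, and their summed RPKM was 1.05 times as high in HB, where in mRNA it was 1.27 times as high. None of the 34 members tested was called, as was none of the 9647 genes tested (0%). At an unadjusted p below 0.05, 338 genes passed, of which 2 were members (edgeR's quasi-likelihood test). DESeq2 called 3 members lower and none higher. Over the genes with reads in all 4 RNC libraries, the median log2 change was -0.06 for 24 members and -0.02 for 6556 genes tested. The HB RNC libraries differed by little more than counting noise (chi-square per degree of freedom 1.40 over all genes and 1.27 over members, against 98.0 and 154 in the HF RNC pair), so they were summed and counted as 1 sample. That left 1 sample against 2, with 1 residual degree of freedom. On simulated counts in which all genes shared the common spread of the HF RNC libraries, this fit recovered none of the genes given a known change. The absence of calls therefore does not show that RNC levels were alike.

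By the smallest p, Gsta4, Sult1b1 and Gstt1 came first in RNC. Gsta4 had 0 reads in both HB RNC libraries, against 116 and 202 reads in the HF RNC libraries. Sult1b1, which acts on thyroid hormones, had 0 reads in both HB RNC libraries, against 76 and 226 in the HF RNC libraries. Gstt1 had 546 CPM in summed HB RNC, against 352 and 311 CPM in HF RNC (log2 change 0.72 ± 0.34, SE; edgeR adjusted p = 1.00). In mRNA, Gsta4 had been called higher in HB.

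Zeros were common in the RNC libraries. Of the 38 members with at least 10 CPM in mRNA, 9 had 0 reads in each HB RNC library (23.7% each), and 6 and 10 had 0 in the HF RNC libraries (15.8% and 26.3%). Over all genes at that level the shares were 9.23% and 8.94% in HB RNC and 15.0% and 11.5% in HF RNC. Few detected genes had only 1 to 3 reads in RNC, 1.44% to 1.66% a library, against 9.09% to 10.5% in mRNA. In HF, 1904 genes had 0 reads in the replicate 1 library and a median of 71 reads in replicate 2. A listed 0 is therefore not read as absence from ribosomes, and no fold is given against one.

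All 10 members listed at 0 in one diet's RNC pair alone are of this kind. Gsta1, Gsta4, Gstm4, Sult1b1, Ugt1a1, Ugt1a5 and Ugt3a1 had no HB RNC reads, with 122, 318, 49, 302, 98, 105 and 216 reads over the HF RNC pair. Gstm7, Sult1c2 and Ugt2b37 had no HF RNC reads, with 66, 215 and 199 reads over the HB RNC pair. Ugt1a1, at 4988 and 1328 reads in HB mRNA, thus had none in HB RNC. Gstm3, Ugt1a6a and Ugt1a6b, all at 10 CPM or more in mRNA, had no read in any RNC library.

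RNC was also set against mRNA of the same diet. HB RNC is 1 summed sample in this fit. The standard errors and p-values of HB ratios thus take their spread from the other libraries and do not measure that of HB RNC. In HB, 1 of 47 tested members was called higher and 17 lower in RNC than in mRNA (edgeR, fit of 7 libraries), where 6.36% and 22.0% of all genes tested were. The called-lower members made 36.2% of those tested. In HF, 2 were called higher and 14 lower, where 3.92% and 24.7% of all genes were, so that the members' share called lower, 29.8%, lay near that over all genes. Over genes with reads in all 4 RNC libraries, the median log2 ratio was -1.40 in HB and -0.92 in HF for 24 members, beside -0.04 in HB and -0.05 in HF for 6576 genes tested. Of the called-lower members, 9 of 17 in HB and 9 of 14 in HF had no RNC read in that diet. With any 1 of the 4 mRNA libraries left out, every HF and HB call was lost, as were the calls over all genes. That loss is therefore not particular to the members.

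Among members with RNC reads in both diets, Mgst1, which resides in the endoplasmic reticulum and outer mitochondrial membranes, was called lower in RNC in both diets, at a log2 ratio of -2.81 ± 0.46 in HB and -2.24 ± 0.34 in HF (SE; edgeR adjusted p of 0.0181 and 0.0103). Gstm1 lay at -1.62 ± 0.30 in HB and -1.80 ± 0.24 in HF, and Ugt2b5 at -1.79 ± 0.32 in HB and -1.01 ± 0.24 in HF, all called. Scaled by total counts, the Ugt2b5 call in HF was lost (edgeR adjusted p = 0.0574). Ugt3a2 had 23 and 42 reads in the HB RNC libraries and 47 and 143 in the HF RNC libraries, beside 6556 and 3347 in HB mRNA and 1087 and 1358 in HF mRNA. Its log2 ratio was -6.17 ± 0.89 in HB and -2.96 ± 0.56 in HF, both called.

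At the other end, Gstz1 was higher in RNC than in mRNA, at 0.72 ± 0.21 in HB (not called) and 0.97 ± 0.17 in HF (SE; edgeR adjusted p = 0.0142). Gstp2 lay at 2.71 ± 0.62 in HB (edgeR adjusted p = 0.0312) and 1.50 ± 0.53 in HF (not called). Gstp1 and Gstp2 are nearly identical, and how reads divide between them is uncertain. Sult1a1 lay near 0 in both diets, at -0.01 ± 0.27 in HB and 0.06 ± 0.22 in HF.

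**Figure D3:**
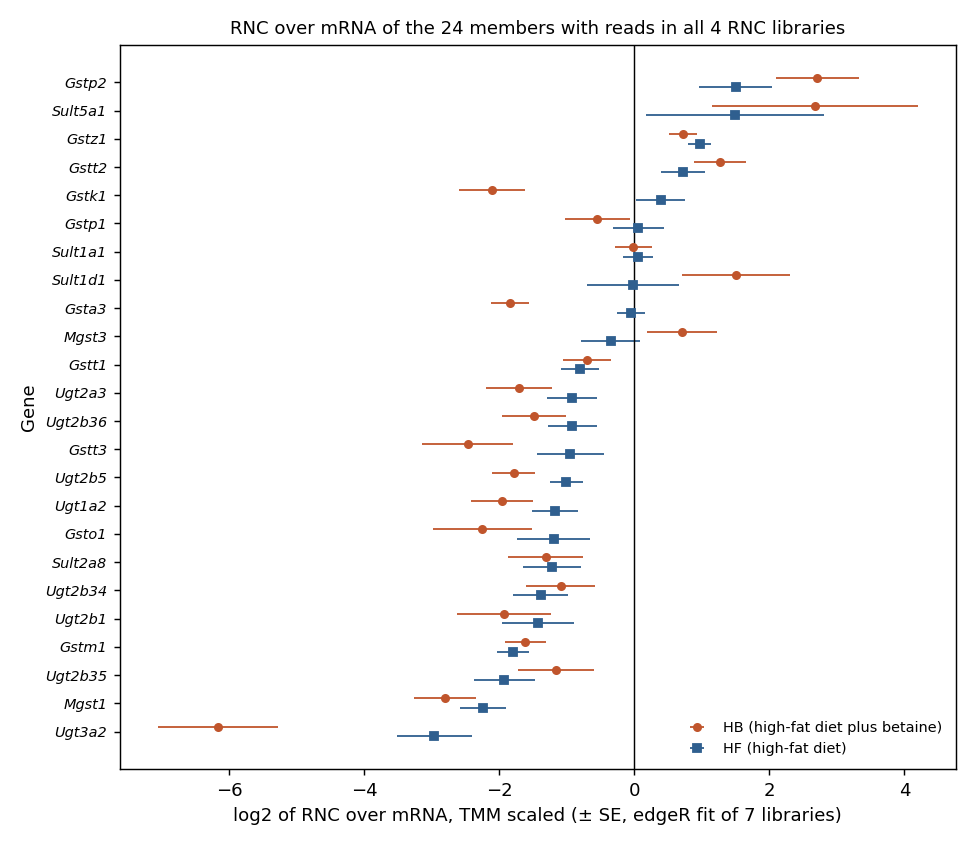
log2 ratio of RNC over mRNA with its standard error (x axis) for the 24 members with reads in all 4 RNC libraries (y axis), HB as circles above HF as squares. Gsta3 lies at -1.84 in HB and -0.05 in HF, whereas Gstm1 and Sult1a1 lie within 1 standard error of the same place in both diets.

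Whether the ratio itself changed with betaine was tested as an interaction in the same fit, with the same limit on the spread of HB RNC. Of 47 tested members, 2 were called higher and 4 lower, where 6.49% and 4.02% of all genes tested were. Over genes with reads in all 4 RNC libraries, the median change was -0.38 for 24 members and 0.03 for 6576 genes tested. On simulated counts with a common spread for all genes, this test, too, recovered none of the genes given a known change. Since the test did call genes in these data, that simulation does not measure its power here. Gsta3 was the only called member with reads in every RNC library. It had 3973 and 5086 reads in HB RNC and 4299 and 4849 reads in HF RNC, so its RNC level was 623 CPM in HB and 741 and 739 CPM in HF, while its mRNA was higher in HB. The change in its log2 ratio was -1.79 ± 0.34 (SE; edgeR adjusted p = 0.0392). Scaled by total counts, which moved the median change over all genes tested to 0.24, it was -1.57 and no longer called (edgeR adjusted p = 0.0629). Gsta1, Gsta4 and Sult1b1 were called lower with no HB RNC read, and Gstm7 and Sult1c2 higher with no HF RNC read. With any 1 mRNA library left out, the calls were lost for the members and over all genes alike.

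The m6A libraries placed few peaks on conjugating enzyme genes. Counting the 8 Ugt1a genes as 1 locus, 42 member loci were tested in mRNA, and 2 of them (4.76%) had a peak in all 4 libraries, Sult2a8 and the Ugt1a locus. Of all 12478 genes tested in mRNA and placed on the genome, each counted singly, 35.9% had one. Counted singly, 5 of the 47 tested member genes had a peak in all 4 libraries and 20 had none in any library. At least 1 library had a peak in 23 of the 42 loci (54.8%) and in 82.6% of all genes counted singly. The 47 member genes were no less abundant, with a median of 66.4 CPM beside 16.1 CPM for all genes. They were shorter, with a median gene length of 15395 bases beside 22389.5 bases. Peaks were assigned by overlap with the gene body, and the deposited lists hold only peaks with a fold enrichment above 6.

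Over all 60 member loci, 11 and 13 had a peak in the HB m6A libraries, against 4 and 13 in the HF m6A libraries. HF replicate 1 thus stood below the others, although its list held 22060 peaks, beside 22086 and 25718 in HB and 24141 in HF replicate 2. Outside the Ugt1a locus, 34 of 59 genes had no peak in any library, among them the abundant Mgst1, Gstm1, Gstp1, Gsta3, Gstt1 and Ugt2b5, and 17 had one in a single library. Gstz1 and Sult1a1 had peaks in 3 libraries, all but HF replicate 1.

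**Figure D4:**
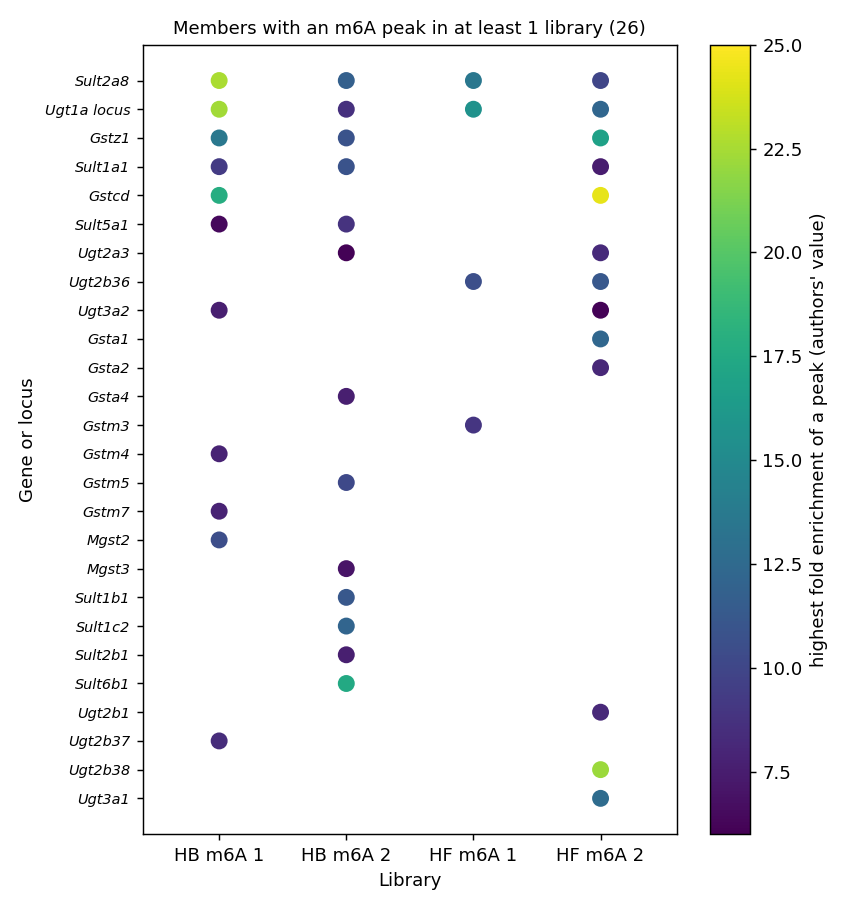
Highest fold enrichment of an m6A peak (colour, the authors' value) in each library (x axis, HB left of HF) for the 26 member loci with a peak in at least 1 library (y axis). Only Sult2a8 and the Ugt1a locus have a point in every column, and the HF m6A 1 column holds 4 points.

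Joined across libraries, the peaks formed 69 regions, of which 1 was found in all 4 libraries, 1 in both HB libraries alone and 2 in both HF libraries alone. Coordinates are those of mm10, which is GRCm38. The shared region lay in Sult2a8 at chr7:14446294-14446645, with fold enrichments of 9.94 and 11.7 in HB and 9.12 and 9.98 in HF. The HB region lay in Sult1a1 at chr7:126685542-126685863, with fold enrichments of 9.03 and 10.9. One HF region lay in Ugt2b36 at chr5:87091978-87092591, with fold enrichments of 10.6 and 11.1, and the other in the Ugt1a locus at chr1:88138656-88139137, with 11.4 and 8.69. Neither Sult1a1 nor Ugt2b36 was called in mRNA. In the Ugt1a locus, 5 of the 6 tested genes were called higher in HB mRNA. Ugt1a6a, Ugt1a6b and Ugt1a9, whose gene bodies hold the HF region, were among them. So were Ugt1a1 and Ugt1a5, whose gene bodies do not hold it. The region also overlaps Ugt1a8, and a link between the peak and mRNA levels was not tested. Peaks absent from a list may lie just under its limit, so a region found in 1 diet is not shown to differ between diets.

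Both the Sult2a8 and the Ugt2b36 regions reach across an annotated start, and the windows are shown for that reason, with capitals for the bases inside the m6A region. Sult2a8 lies at chr7:14446538-14446837 and Ugt2b36 at chr5:87092506-87092805, both on the minus strand of GRCm38.p6, with 108 and 86 bases inside the regions.
Sult2a8: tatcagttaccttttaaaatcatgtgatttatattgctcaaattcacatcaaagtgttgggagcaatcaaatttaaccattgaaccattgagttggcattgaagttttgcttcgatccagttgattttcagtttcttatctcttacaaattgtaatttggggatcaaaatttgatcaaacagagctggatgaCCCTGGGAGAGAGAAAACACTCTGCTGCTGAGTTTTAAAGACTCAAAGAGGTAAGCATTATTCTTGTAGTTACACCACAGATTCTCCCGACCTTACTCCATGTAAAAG
Ugt2b36: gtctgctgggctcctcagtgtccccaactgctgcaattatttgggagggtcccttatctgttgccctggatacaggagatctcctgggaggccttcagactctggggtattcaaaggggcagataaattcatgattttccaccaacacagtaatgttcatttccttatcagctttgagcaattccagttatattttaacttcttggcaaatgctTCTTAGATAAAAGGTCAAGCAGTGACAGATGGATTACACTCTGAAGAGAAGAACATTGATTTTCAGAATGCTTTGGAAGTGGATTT

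Taking the highest peak of each locus, the 5 highest fold enrichments were 24.3 in Gstcd (HF replicate 2), 22.6 in Sult2a8 (HB replicate 1), 22.4 in the Ugt1a locus (HB replicate 1), 22.1 in Ugt2b38 (HF replicate 2) and 17.5 in Sult6b1 (HB replicate 2). None of these peaks was found in both libraries of a diet at the same place. Sult6b1 had 0 reads in both HB mRNA libraries, and its region also overlapped the gene Gm26637. Gstcd had 5 and 3 reads in the HF mRNA libraries. Assignment by overlap does not show that these peaks lie on RNA of the named gene. The 26 regions of the Ugt1a locus, spread over 164592 bases, were each found in 1 to 3 libraries. The fold enrichment is the authors' and is a value of each peak, not an m6A level of the transcript.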

How the data were processed

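Per the labels, polyadenylated total and RNC mRNA were sequenced and mapped to RefSeq RNA. The deposited read count per gene is not normalized. The deposited RPKM is the authors' count scaled by the longest transcript's length and by library size. The deposited m6A peak lists give the authors' fold enrichment (a ratio) and the pileup signal of each peak; per the labels' protocols, these reads passed through Trimmomatic 0.36 and TopHat 2.0.13, and the submitters' processing notes list MACS2 2.1.0.20151222.

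Counts were tested with edgeR 4.0.16 in R 4.3.3 (quasi-likelihood F test, TMM scaling, filterByExpr, Benjamini-Hochberg adjusted p below 0.05), over the 4 mRNA libraries, over RNC alone (5778439 to 8659310 reads a library; HB summed), and over 7 libraries for ratios. Members were named by rule: up to 10 called members each way in mRNA with a mean of at least 5 CPM, the most abundant of each family by RPKM, up to 5 each way for RNC and ratios (or the 3 smallest p), members with a diet-specific m6A region, and the 5 loci with the highest fold enrichments. Other named genes were chosen after their values were seen. The members were taken by gene symbol and the lists of other genes were written out, both with earlier results of these data known. The fits were tested on simulated counts, with a common spread for all genes of each kind of library, estimated from these libraries. The mRNA fit recovered most changed genes, and the RNC fit and the test of the change of ratio recovered none. The test of the change of ratio did call genes in the real data, so its simulated setting differs from them. Replicate numbers are not stated to pair the samples. Versions of other tools were DESeq2 1.42.0 and limma 3.58.1.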

Additional observations from a re-analysis of the deposited data

Results flagged for a closer look

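For 6 members, the difference between diets was not the same in RNC as in mRNA by the interaction test (edgeR, adjusted over all genes tested). Adjusted p was 0.0319 for Gsta1, 0.0319 for Gsta4, 0.0319 for Sult1b1 and 0.0392 for Gsta3, with RNC relatively lower in HB. It was 0.0430 for Gstm7 and 0.0379 for Sult1c2, with RNC relatively higher in HB. The Gsta3 call was lost with scaling by total counts (edgeR adjusted p = 0.0629). The same test called 6.49% of all genes tested higher and 4.02% lower, beside 4.26% and 8.51% of the tested members. In 5 of the 6 one diet had no RNC read, and a listed 0 is not read as absence from ribosomes. With any 1 mRNA library left out, or with the replicate block, the calls were lost for the members and over all genes alike.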

How the results depend on the processing

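Counts below are members called higher and lower. In mRNA, the 23 and 2 calls became 0 and 0 in the fit of 7 libraries, and 13 to 23 and 1 to 2 with 1 mRNA library left out; other scalings, no filter and DESeq2 gave 18 to 27 and 2 to 3. In RNC, 0 and 0 became 0 and 3 with DESeq2, 3 and 3 in the fit of 7 libraries, and 4 and 2 with the HB RNC libraries as 2 samples; with an HF RNC library left out no test was possible, since no residual degree of freedom remained. RNC over mRNA in HB, 1 and 17, gave 3 higher with total counts, 3 higher with DESeq2 and 0 higher with limma voom, 3 and 29 with HB RNC as 2 samples, and 0 to 5 and 0 to 34 with a library left out. RNC over mRNA in HF, 2 and 14, gave 1 higher without the filter, 0 and 8 with limma voom, and 0 to 5 and 0 to 23 with a library left out. The change of the ratio, 2 and 4, gave 1 higher without the filter, 1 higher with limma voom, 10 lower with DESeq2, and 0 to 7 and 0 to 9 with a library left out. The calls over all genes moved as well. None was left over all genes for mRNA in the fit of 7 libraries, or for the ratios and their change without an mRNA library. Without an HF RNC library, the calls over all genes rose for both ratios and for their change. These shifts are therefore not particular to the members, and their cause was not tested.

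The labels do not say that replicate numbers pair the samples, and deviations of same-numbered mRNA libraries correlated at -0.12 across genes. With the replicate block the counts were 25 and 3 in mRNA, 0 and 0 in RNC, 0 and 9 for RNC over mRNA in HB, 0 and 0 in HF, and 0 and 0 for the change.

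With a fold enrichment of at least 10, 5 and 7 loci had a peak in the HB m6A libraries and 3 and 7 in the HF m6A libraries, and 0, 0 and 1 regions were found in all libraries, in HB alone and in HF alone. With an m6A library left out, these were 1 to 2, 1 to 18 and 2 to 18. A region then needed only the remaining library of that diet, so the highest counts follow from a looser rule. Assignment of peaks by exon was not run. RNC depth and its many zeros limit what could be detected there.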
